A study of Mus musculus with 12 samples.

Results

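Genes of the core spliceosome and of the SR and hnRNP families of splicing regulators were followed in developing mouse muscle. The 53 members are all protein-coding genes of the count table whose symbols begin with Srsf and a number (SR, 12 genes), Hnrnp (hnRNP, 20 genes), Sf3a or Sf3b and a number (SF3, 9 genes) or Snrp (12 genes), out of 55450 genes. The choice used names only and no measured value. RNA was taken from the tibialis anterior (TA), a muscle of the lower leg, of wild-type (WT) mice of the 129Pas background as late embryos (E18.5) or at an age of 2 or 7 weeks (wks), from 4 mice per age, which gave 12 libraries. No treatment is named in the labels, and poly(A)-selected RNA was sequenced, so that the small nuclear RNAs themselves, which have no poly(A) tail, were not measured. Of the members, 52 had enough counts to be tested, and *Srsf19* had at most 2 counts in a library.

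Introns are removed from pre-mRNA by the spliceosome, which is built from small nuclear ribonucleoproteins (snRNPs) named U1, U2, U4, U5 and U6 after their RNAs. The *Snrp* genes encode the Sm proteins, which close as a ring around the RNA of most snRNPs, and proteins specific to U1 or U2. The SF3A and SF3B complexes belong to the U2 snRNP and hold it at the branch point of the intron. SR proteins mostly bind exons and promote their inclusion, whereas hnRNP proteins coat nascent RNA and often act against inclusion, and the balance of both families is known to set many exon choices. In skeletal muscle, a large set of exons switches from fetal to adult forms around birth.

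Between E18.5 and 2 wks, 41 of the 52 tested members changed, 30 to lower and 11 to higher levels. Genes of all kinds changed in this interval, since 34.2% of the 19276 genes tested were lower and 31.5% were higher at 2 wks. Among hnRNP genes, 15 of 20 were lower and 0 were higher (the same 15 passed at an unadjusted p under 0.05). Among SR genes, 7 of 11 were lower and 1, *Srsf4*, was higher. The SF3 genes divided, with 5 of 9 lower and 3 higher, and the *Snrp* genes leaned the other way, with 7 of 12 higher and 3 lower. In log2 fold change, the median was -0.78 for hnRNP, -0.67 for SR, -0.31 for SF3 and 0.73 for *Snrp* genes, against -0.09 for all genes. The direction of the *Snrp* genes as a class depended on the scaling, since 2 were higher and 5 lower with the total count (median -0.20, all genes -1.02). After a trend over GC content was removed, 5 were higher and 1 lower (median 0.25, all genes -0.23). After a trend over transcript length was removed, the rises of *Snrpf*, *Snrpc*, *Snrpd2* and *Snrpa* were not called. Calls are from the quasi-likelihood test of edgeR with Benjamini-Hochberg adjustment over all genes tested, named "edgeR adjusted p" hereafter, with a threshold of 0.05. Levels are in CPM, the usual unit of counts relative to library size, here after scaling by the trimmed mean of M-values (TMM), and are given for replicates 1 to 4 in that order.

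**Figure D1:**
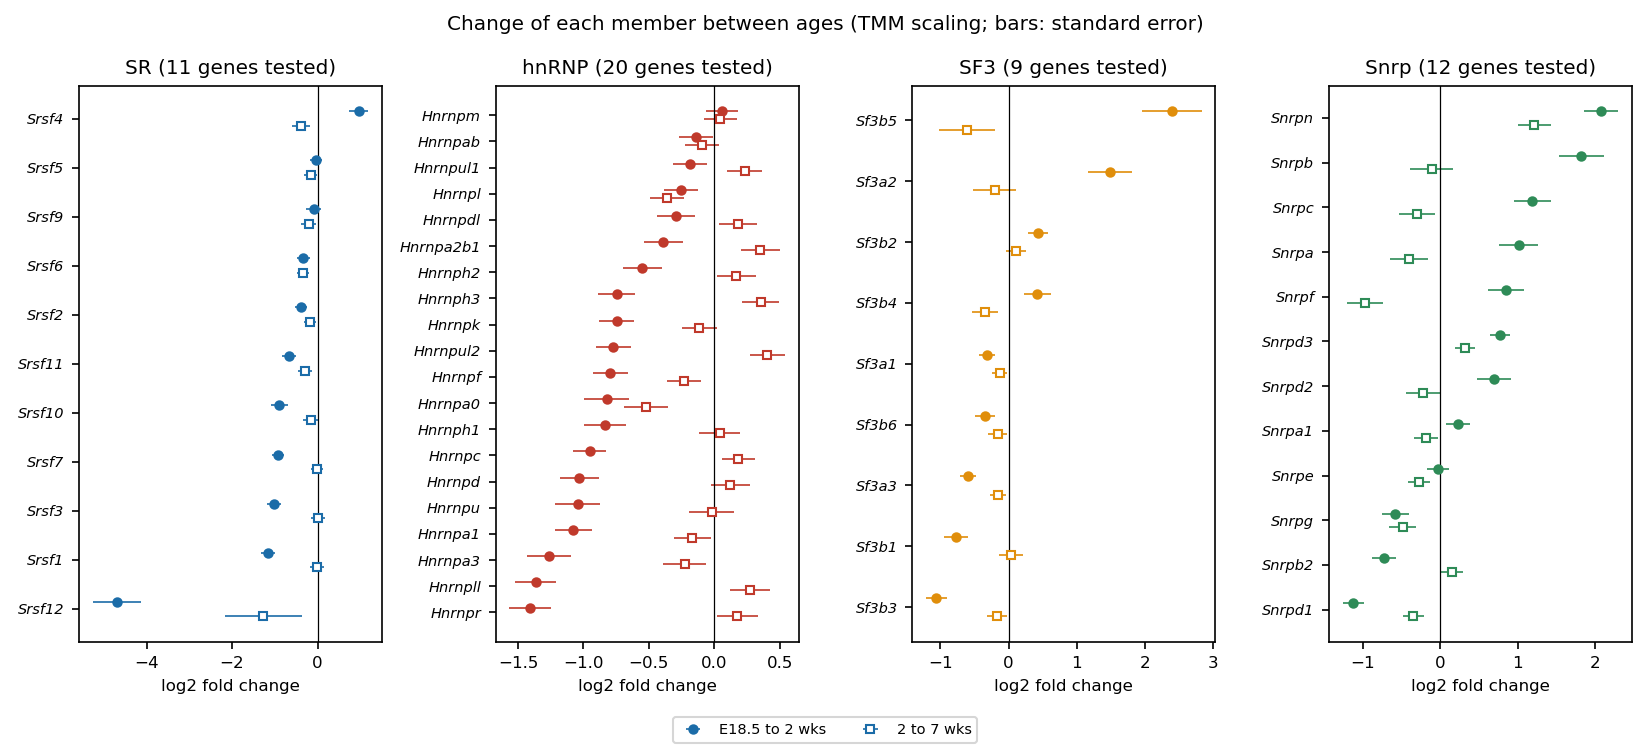
The log2 fold change of each tested member is plotted by class on the x axis (positive values: higher at the later age), with filled circles for E18.5 to 2 wks, open squares for 2 to 7 wks and bars for the standard error. Most circles of the SR and hnRNP genes lie left of 0, those of the *Snrp* genes lie mostly right of it, and most squares lie close to 0.

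The calls to 2 wks were followed under other processing. Of the 30 falls, 23 kept their direction and passed the threshold under each of the other settings that were run for them apart from the test of a log2 fold change beyond 1 and the libraries left out. Of the 11 rises, 3 did so, those of *Snrpn*, *Snrpb* and *Sf3b5*. *Srsf12*, among the 7 SR falls, passed the filter on low counts only through its levels at E18.5, so it had to differ, and with at least 10 counts in every library it was not tested (10 settings instead of 11). The 23 falls were 13 hnRNP genes, 7 SR genes (among them *Srsf12*, whose outcome the filter fixed), *Sf3a3*, *Sf3b3* and *Snrpd1*. Scaling to the total count moved the median of all genes from -0.09 to -1.02 on the log2 scale (a shift of 0.93). Of all 19276 genes, 2550 were then higher and 11923 lower, and of the members 3 were higher and 42 lower. The 20 most abundant genes held 13.8% to 16.1% of counts in E18.5 mice, 33.2% to 35.6% in 2-wk-old mice and 36.4% to 37.8% in 7-wk-old mice.

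Measured as a share of all counts, the members together held 1.01% to 1.28% in E18.5 mice. They held 0.353% to 0.459% in 2-wk-old and 0.298% to 0.333% in 7-wk-old mice. No mouse at E18.5 overlapped with a later one. The hnRNP genes made up most of this, with 0.655% to 0.844% of counts at E18.5 and 0.182% to 0.211% at 7 wks. The *Snrp* genes held 0.0424% to 0.0536% in E18.5 mice, then 0.0327% to 0.0401% and, in 7-wk-old mice, 0.0217% to 0.0353%. Their summed level thus went down as a share of all counts while it went up after TMM scaling, with 261 to 325 CPM in E18.5 mice and 397 to 439.6 CPM in 2-wk-old mice. Up to 2 wks, the direction of the *Snrp* sum therefore depends on the scaling, whereas the hnRNP sum was lower on both scales (mean 4355 and 2687 CPM). From 2 to 7 wks the mean hnRNP sum went from 0.235% to 0.197% of counts but from 2687 to 2859 CPM.

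**Figure D2:**
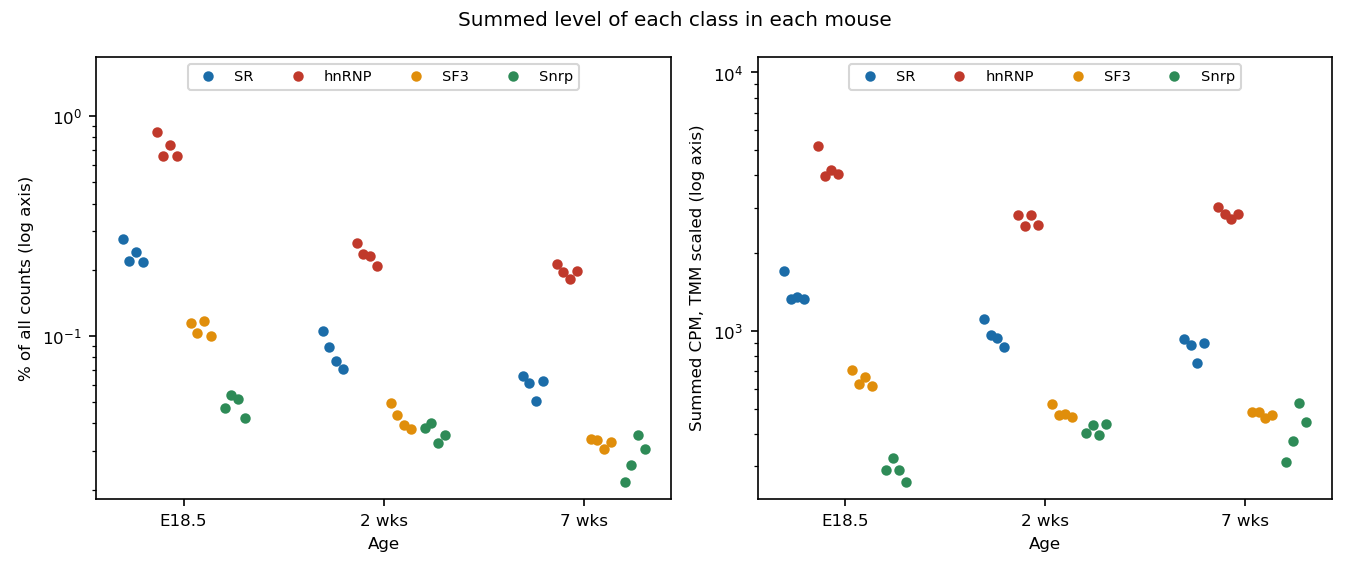
Each point is the summed level of a class in a mouse, as a percentage of all counts (left) and as TMM-scaled CPM (right), on log axes against age. The hnRNP, SR and SF3 sums were lower at 2 wks than at E18.5 on both scales, whereas the Snrp sum fell on the left scale and rose on the right one.

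Libraries differed in how read counts depended on the GC content of a gene's exons, and this dependence moved with age. A gene richer in GC by 10 percentage points differed in log2 level by -1.14 to -0.10 in the libraries at E18.5, by 0.37 to 0.51 at 2 wks and by -0.17 to 0.47 at 7 wks, relative to the mean of all libraries, and replicate 1 at E18.5 had the steepest trend. Across the 52 members the log2 fold change to 2 wks correlated with GC content (r = 0.395), as it did across 11861 genes (r = 0.418), and genes are not independent replicates. After each library's trend was removed, 7 members were higher and 30 lower at 2 wks, and 17 of 20 hnRNP genes were lower. Of all 19276 genes, 5170 were then higher and 7597 lower (median -0.23 instead of -0.09). Values after this removal are given below where it added or ended a call, and for some other members. It also changed the size of falls that kept their call in both settings. *Srsf1* was at -0.63 instead of -1.16 and *Hnrnpa0* at -1.73 instead of -0.82 (log2 fold change to 2 wks). All libraries of an age share the GC trend in direction up to 2 wks, so library and age cannot be told apart here. Without replicate 1 at E18.5, 40 members changed to 2 wks, 29 of them to lower levels. Libraries also differed in a trend over transcript length. Per doubling of length, log2 levels differed by 0.18 to 0.31 at E18.5, by -0.17 to -0.09 at 2 wks and by -0.27 to 0.07 at 7 wks. The *Snrp* genes were the shortest class, with a median of 1205 bases against 2507 to 3221. With this trend removed, the rises to 2 wks of *Snrpf*, *Snrpc*, *Snrpd2*, *Snrpa* and *Sf3b2* and the fall of *Sf3a1* lost their calls.

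**Figure D3:**
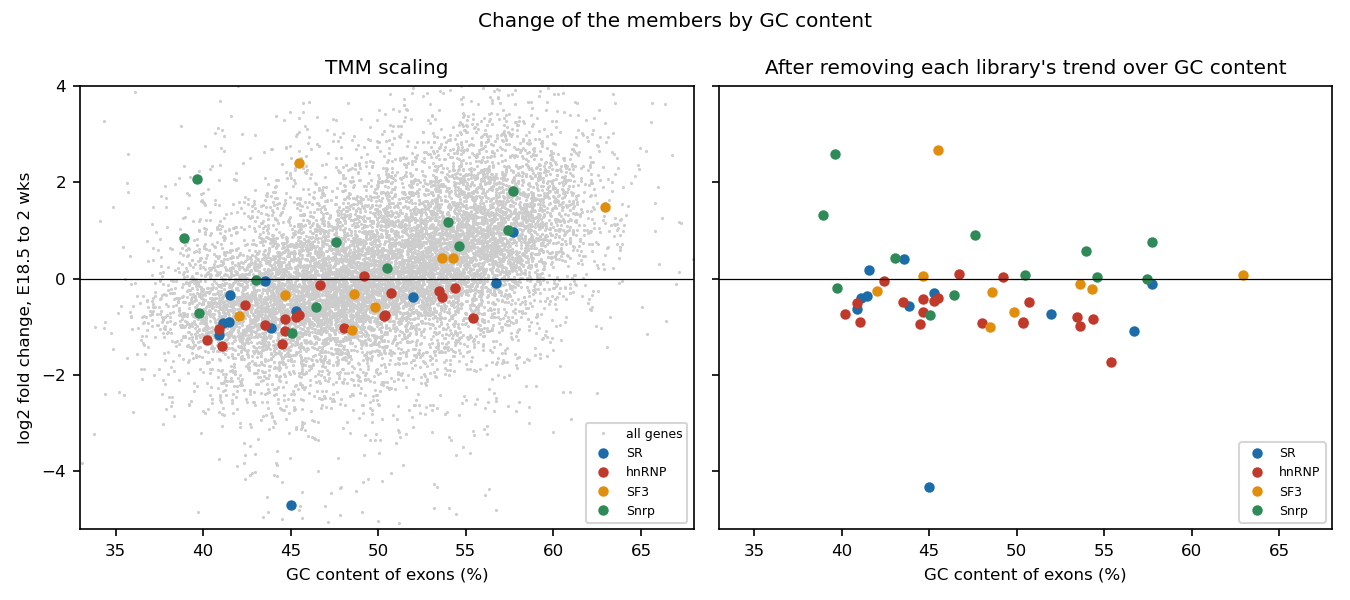
The change to 2 wks relative to E18.5 (log2) is plotted against the GC content of exons in percent, for the members by class (colours) and for genes with a mean log2 CPM over 1 (grey), with TMM scaling (left) and after removal of each library's trend over GC content (right, members only). *Snrpn* and *Sf3b5* stay above 2 in both panels, and *Srsf12* lies below -4 in both.

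Promoters of the members were compared with those of all genes, since many of them moved together. RefSeq windows of 250 bases before the start (GRCm38.p6) were at hand for 46 of the 53 members and 27025 genes. They were rich in CG dinucleotides, with a median of 19 a window against 6 for all windows. Each motif was searched on both strands. The letters TTTCCCGC, bound by E2F factors of the cell cycle, were found for 4 of 46 members (8.7%) and 1.03% of all genes. CCGGAAGT, bound by ETS factors, was found for 15.2% and 3.23%, TGCGCA, the core of the NRF1 site, for 23.9% and 7.36%, and the GC box GGGCGG for 71.7% and 35.4%. CCAAT was found for 47.8% and 37.5%, AAGATGGC of YY1 for 2.17% and 1.83%, and TATAAA for 13.0% and 14.3%. Matches of TTTCCCGC and GGGCGG shared bases in 2 of 63 member windows, those of CCGGAAGT and GGGCGG in 1. By direction, the letters TTTCCCGC were found for 3 of 27 members lower at 2 wks and 0 of 9 higher. CCGGAAGT was found for 14.8% and 22.2% of these, TGCGCA for 25.9% and 33.3%, and GGGCGG for 74.1% and 55.6%. A match is a description of letters and not a measured site, and windows with a like number of CG dinucleotides were not compared. A link between a motif and a direction was not tested.

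The windows of 5 members are printed 5′ to 3′ as examples of genes with calls to lower and higher levels, with matches of TTTCCCGC, CCGGAAGT and GGGCGG on either strand in capitals. *Srsf1* and *Srsf10* fell and hold the E2F letters, which *Hnrnpr* (lower at 2 wks) and *Hnrnpul1* (no call to 2 wks) hold as well. *Srsf12* fell most and holds a GC box, and *Srsf4* holds ETS letters and GC boxes. The most downstream of the 4 listed starts of *Snrpn* holds none of the 3 motifs and 3 CG dinucleotides.
Srsf1 promoter, chr11:88047123-88047372, plus strand: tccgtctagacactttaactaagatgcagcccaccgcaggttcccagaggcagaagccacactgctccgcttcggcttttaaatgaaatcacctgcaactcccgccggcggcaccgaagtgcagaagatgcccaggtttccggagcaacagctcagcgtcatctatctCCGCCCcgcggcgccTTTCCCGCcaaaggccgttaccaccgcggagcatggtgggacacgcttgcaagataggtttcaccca
Srsf10 promoter, chr4:135855821-135856070, plus strand: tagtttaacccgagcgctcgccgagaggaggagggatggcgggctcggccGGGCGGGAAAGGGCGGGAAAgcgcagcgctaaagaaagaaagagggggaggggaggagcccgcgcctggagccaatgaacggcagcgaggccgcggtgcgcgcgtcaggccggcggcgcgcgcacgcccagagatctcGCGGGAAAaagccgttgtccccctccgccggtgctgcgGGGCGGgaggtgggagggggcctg
Srsf12 promoter, chr4:33209022-33209271, plus strand: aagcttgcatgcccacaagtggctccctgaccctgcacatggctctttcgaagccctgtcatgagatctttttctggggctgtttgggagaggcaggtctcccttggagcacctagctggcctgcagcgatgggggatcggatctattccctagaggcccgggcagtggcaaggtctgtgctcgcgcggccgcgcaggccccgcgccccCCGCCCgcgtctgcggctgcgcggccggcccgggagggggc
Srsf4 promoter, chr4:131873387-131873636, plus strand: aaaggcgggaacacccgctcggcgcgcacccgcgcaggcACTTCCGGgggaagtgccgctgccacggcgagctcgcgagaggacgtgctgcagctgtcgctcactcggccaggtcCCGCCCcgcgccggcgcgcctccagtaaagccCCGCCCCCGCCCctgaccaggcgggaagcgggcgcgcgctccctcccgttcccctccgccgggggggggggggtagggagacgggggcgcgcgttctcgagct
Snrpn promoter, chr7:60005200-60005449, minus strand: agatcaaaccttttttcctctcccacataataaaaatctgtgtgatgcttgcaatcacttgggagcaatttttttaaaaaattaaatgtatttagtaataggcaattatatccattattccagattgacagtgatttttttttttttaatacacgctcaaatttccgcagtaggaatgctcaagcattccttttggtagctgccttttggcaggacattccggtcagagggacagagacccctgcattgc

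The SR proteins share arginine- and serine-rich tails whose phosphorylation controls their entry into the nucleus and their activity. *Srsf1*, the founding member, whose protein binds purine-rich exon enhancers, was at 339, 211, 221 and 233 CPM in E18.5 mice, at 118, 109, 116 and 106 CPM in 2-wk-old mice and at 131, 111, 89.3 and 113 CPM in 7-wk-old mice. Every mouse at E18.5 was above every later one, and replicate 1 at E18.5 was the highest. *Srsf1* fell to 2 wks (log2 fold change -1.16 ± 0.17 (SE), edgeR adjusted p = 5.57e-05) and stayed within its spread afterwards (log2 fold change -0.02 ± 0.17 (SE), edgeR adjusted p = 0.959). *Srsf3*, which encodes the smallest SR protein and also serves mRNA export, was at 281, 203, 208 and 197 CPM in E18.5 mice, at 123, 102, 116 and 98.05 CPM in 2-wk-old mice and at 119.9, 121, 88.1 and 112 CPM in 7-wk-old mice. The ages separated in the same way, and *Srsf3* fell as well (log2 fold change -1.02 ± 0.16 (SE), edgeR adjusted p = 8.99e-05). *Srsf7*, the closest relative of *Srsf3*, fell in step (log2 fold change -0.92 ± 0.14 (SE), edgeR adjusted p = 8.68e-05), from 127, 95.3, 92.9 and 83.2 CPM at E18.5 to 56.5, 50.8, 56.6 and 46.6 CPM at 2 wks.

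*Srsf12*, which encodes an SR-like protein known to counteract other SR proteins, was the member with the steepest fall. It had 177, 209, 248 and 157 counts at E18.5, 4, 8, 1 and 0 counts at 2 wks, and 1, 1, 2 and 0 counts at 7 wks. Reads on this gene were thus close to absent in postnatal muscle at a depth of at least 63019000 counts per library. The fitted change to 2 wks was log2 fold change -4.69 ± 0.57 (SE), edgeR adjusted p = 1.04e-05, and with so few counts at 2 wks its size depends on the prior count of the fit. Since *Srsf12* passed the filter only through its levels at E18.5, the call was fixed in advance and its p-value adds no support. *Srsf10*, a relative that represses splicing when dephosphorylated, fell (log2 fold change -0.89 ± 0.19 (SE), edgeR adjusted p = 0.00106), as did *Srsf11* (log2 fold change -0.67 ± 0.16 (SE), edgeR adjusted p = 0.00253) and *Srsf2*, also known as SC35 (log2 fold change -0.39 ± 0.14 (SE), edgeR adjusted p = 0.0255). The call of *Srsf2* was lost without replicate 1 at E18.5 or without replicate 2, 3 or 4 at 2 wks.

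Of the SR genes, 3 had no call in the first interval. *Srsf5*, whose mRNA responds to insulin and growth in other tissues, was at 248, 266, 268 and 250.5 CPM in E18.5 mice, at 304, 259, 222 and 219 CPM in 2-wk-old mice and at 247, 218, 189 and 243 CPM in 7-wk-old mice. The mice at E18.5 and 2 wks overlapped (log2 fold change -0.04 ± 0.15 (SE), edgeR adjusted p = 0.823), and those at 7 wks, although below E18.5, did not pass the test either (log2 fold change -0.20 ± 0.15 (SE), edgeR adjusted p = 0.229). *Srsf9* (log2 fold change -0.09 ± 0.17 (SE), edgeR adjusted p = 0.637) and *Srsf6* (log2 fold change -0.33 ± 0.14 (SE), edgeR adjusted p = 0.0537) also gave no call, and *Srsf6* was lower at 7 wks than at E18.5 (log2 fold change -0.67 ± 0.14 (SE), edgeR adjusted p = 7.49e-04). After the GC trend was removed, *Srsf9* was lower (-1.08, edgeR adjusted p = 2.09e-05) and *Srsf5* higher (0.40, edgeR adjusted p = 0.0376) at 2 wks. *Srsf4*, known as SRp75 and the only SR gene with a call to a higher level, was at 12.6, 24.6, 17.9 and 15.4 CPM in E18.5 mice, at 36.6, 34.3, 33.2 and 33.3 CPM in 2-wk-old mice and at 18.6, 21.9, 36.02 and 28.6 CPM in 7-wk-old mice. All mice at 2 wks were above those at E18.5 (log2 fold change 0.96 ± 0.22 (SE), edgeR adjusted p = 0.0017). Its exons are rich in GC, and the rise was gone after the GC trend was removed (log2 fold change -0.11, edgeR adjusted p = 0.437) and with scaling to the total count (log2 fold change 0.03, edgeR adjusted p = 0.896).

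With TMM scaling, the largest falls among hnRNP genes were those of *Hnrnpr*, *Hnrnpll* and *Hnrnpa3*. This order changed after the GC trend was removed, when *Hnrnpa0* was at -1.73, *Hnrnpa2b1* at -0.99, *Hnrnpll* at -0.94, *Hnrnpr* at -0.89 and *Hnrnpa3* at -0.74. *Hnrnpr*, whose protein accompanies mRNA in axons and nuclei, was at 123, 89.5, 96.6 and 92.5 CPM in E18.5 mice, at 37.04, 35.3, 41.1 and 38.01 CPM in 2-wk-old mice and at 50.96, 45.96, 32.5 and 41.6 CPM in 7-wk-old mice. The mice at E18.5 stood apart above all others (log2 fold change -1.41 ± 0.16 (SE), edgeR adjusted p = 5.58e-06). *Hnrnpll*, known for repressing exons of the CD45 gene in lymphocytes, was at 72.6, 44.6, 54.4 and 56.6 CPM in E18.5 mice, at 21.3, 22.2, 22.8 and 22.2 CPM in 2-wk-old mice and at 31.5, 26.6, 22.4 and 26.5 CPM in 7-wk-old mice. It fell by a like amount (log2 fold change -1.37 ± 0.16 (SE), edgeR adjusted p = 6.58e-06) without overlap between E18.5 and later ages.

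The hnRNP A/B proteins are the main proteins of the hnRNP particle and bind exon and intron silencers. *Hnrnpa3* was at 491, 328, 337 and 317 CPM in E18.5 mice, at 162, 142, 172 and 138 CPM in 2-wk-old mice and at 148, 132, 113 and 131 CPM in 7-wk-old mice. *Hnrnpa1* was at 456, 431, 416 and 375 CPM in E18.5 mice, at 228, 186, 199 and 182 CPM in 2-wk-old mice and at 198, 174, 150.5 and 185 CPM in 7-wk-old mice. Both were separated between E18.5 and later ages and fell (*Hnrnpa3*, log2 fold change -1.26 ± 0.17 (SE), edgeR adjusted p = 2.22e-05; *Hnrnpa1*, log2 fold change -1.08 ± 0.14 (SE), edgeR adjusted p = 2.00e-05). *Hnrnpa2b1*, the member with the highest level, was at 1069, 748, 835 and 845 CPM in E18.5 mice, at 646, 604, 723 and 697 CPM in 2-wk-old mice and at 881, 809.6, 874 and 843 CPM in 7-wk-old mice. It was lowest at 2 wks and overlapped between E18.5 and 7 wks. Its fall to 2 wks (log2 fold change -0.39 ± 0.15 (SE), edgeR adjusted p = 0.0342) lost its call with the replicate number as a block (edgeR adjusted p = 0.0505) and without E18.5 replicate 1, 2wks replicate 1, 2 or 4, or 7wks replicate 2 or 4. *Hnrnpa0* kept falling, from 92.6, 58.1, 55.2 and 59.9 CPM at E18.5 to 44.7, 36.4, 34.8 and 34.4 CPM at 2 wks (log2 fold change -0.82 ± 0.17 (SE), edgeR adjusted p = 7.46e-04) and 26.9, 24.7, 28.3 and 24.5 CPM at 7 wks. The groups of *Hnrnpa0* did not overlap in either interval. The later fall (log2 fold change -0.52 ± 0.17 (SE), edgeR adjusted p = 0.0338) was lost after the GC trend was removed (edgeR adjusted p = 0.303) and without 2wks replicate 1 or 2 or 7wks replicate 1, 2 or 4.

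Genes for hnRNP proteins with other binding preferences fell as well. *Hnrnpc*, whose protein binds uridine tracts in the core particle, was at 203, 161, 179.7 and 160.1 CPM in E18.5 mice, at 88.3, 97.7, 92.5 and 85.2 CPM in 2-wk-old mice and at 106, 111, 98.8 and 97.96 CPM in 7-wk-old mice. Those values did not overlap between E18.5 and later ages (log2 fold change -0.95 ± 0.13 (SE), edgeR adjusted p = 2.11e-05). *Hnrnpu*, which also organises chromatin, fell from 635, 376, 463 and 437 CPM to 268, 231, 236 and 192 CPM (log2 fold change -1.04 ± 0.17 (SE), edgeR adjusted p = 1.47e-04), and *Hnrnpd*, also called AUF1 and known for the decay of AU-rich mRNAs, fell likewise (log2 fold change -1.03 ± 0.15 (SE), edgeR adjusted p = 4.76e-05). The genes for the G-tract binding proteins fell by less, *Hnrnph1* (log2 fold change -0.84 ± 0.16 (SE), edgeR adjusted p = 3.82e-04), *Hnrnpf* (log2 fold change -0.80 ± 0.13 (SE), edgeR adjusted p = 1.41e-04) and *Hnrnph3* (log2 fold change -0.74 ± 0.14 (SE), edgeR adjusted p = 3.94e-04). *Hnrnph2* fell least of them (log2 fold change -0.55 ± 0.15 (SE), edgeR adjusted p = 0.00506). *Hnrnph2* lost its call after the GC trend was removed (log2 fold change -0.05, edgeR adjusted p = 0.63). *Hnrnpk*, whose protein binds C-rich stretches, completed the falls with *Hnrnpul2* (log2 fold changes -0.75 and -0.77).

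The 5 hnRNP genes without a call to 2 wks were *Hnrnpm*, *Hnrnpab*, *Hnrnpul1*, *Hnrnpl* and *Hnrnpdl*. *Hnrnpm*, whose protein promotes exon skipping in many cells, had the smallest change to 2 wks of all hnRNP genes and was at 117, 97.5, 101 and 92.2 CPM in E18.5 mice, at 105, 103, 109 and 109 CPM in 2-wk-old mice and at 105, 96.7, 119 and 118 CPM in 7-wk-old mice. Its groups overlapped throughout (log2 fold change 0.06 ± 0.13 (SE), edgeR adjusted p = 0.691). *Hnrnpab* (log2 fold change -0.14 ± 0.13 (SE), edgeR adjusted p = 0.37), *Hnrnpdl* (log2 fold change -0.29 ± 0.15 (SE), edgeR adjusted p = 0.0941) and *Hnrnpul1* (log2 fold change -0.18 ± 0.13 (SE), edgeR adjusted p = 0.232) differed by less than their spread allowed to call. *Hnrnpl*, whose protein binds CA repeats, was not called at 2 wks (log2 fold change -0.26 ± 0.13 (SE), edgeR adjusted p = 0.0985) but was lower at 7 wks than at E18.5 (log2 fold change -0.62 ± 0.13 (SE), edgeR adjusted p = 7.53e-04). With the GC trend removed, *Hnrnpl*, *Hnrnpul1* and *Hnrnpdl* were also lower at 2 wks (-0.79, -0.84 and -0.48, edgeR adjusted p = 3.87e-05, 5.78e-06 and 0.0093).

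**Figure D4:**
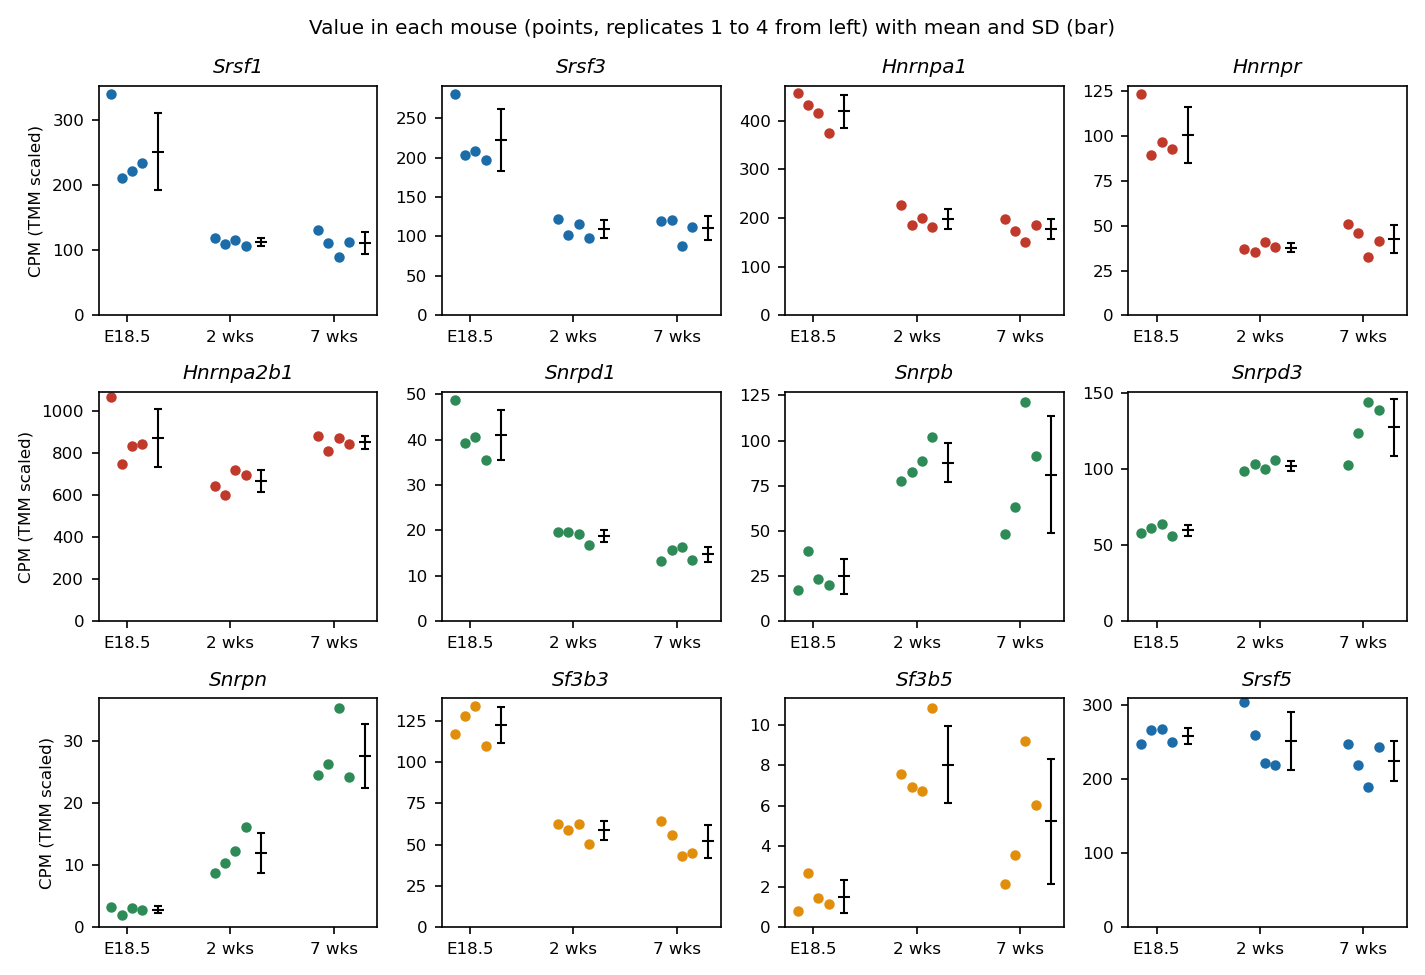
Points give the TMM-scaled CPM of 12 members in each mouse (replicates 1 to 4 from left within an age), and bars give the mean and SD (n = 4). *Snrpn* rises at each step, *Srsf1*, *Srsf3*, *Hnrnpa1*, *Hnrnpr*, *Snrpd1* and *Sf3b3* drop before 2 wks, and *Srsf5* stays level.

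The SF3A and SF3B genes did not move as blocks. *Sf3b3*, which encodes a large scaffold of SF3B, was at 117, 128, 134 and 109.5 CPM in E18.5 mice, at 62.4, 59.1, 62.3 and 50.4 CPM in 2-wk-old mice and at 64.2, 55.9, 43.02 and 44.8 CPM in 7-wk-old mice. It fell without overlap (log2 fold change -1.06 ± 0.15 (SE), edgeR adjusted p = 4.18e-05). *Sf3b1*, which encodes the subunit around the branch point that is often mutated in myelodysplasia, was at 393, 249, 301 and 306 CPM in E18.5 mice, at 214, 177, 175 and 167 CPM in 2-wk-old mice and at 211, 199.9, 141 and 197 CPM in 7-wk-old mice. Its fall (log2 fold change -0.77 ± 0.17 (SE), edgeR adjusted p = 0.00159) was short of the threshold after the GC trend was removed (edgeR adjusted p = 0.0631). *Sf3a3* fell (log2 fold change -0.60 ± 0.12 (SE), edgeR adjusted p = 6.17e-04), as did *Sf3a1* (log2 fold change -0.31 ± 0.12 (SE), edgeR adjusted p = 0.0277) and *Sf3b6* (log2 fold change -0.34 ± 0.14 (SE), edgeR adjusted p = 0.0445), although the last pair lost its calls without single libraries. The change of *Sf3b6* was 0.060 after the GC trend was removed (edgeR adjusted p = 0.745), and its call was also lost with the replicate number as a block (edgeR adjusted p = 0.0631). The libraries in question for *Sf3a1* were E18.5 replicates 2 and 3 and every library of 2wks, and for *Sf3b6* E18.5 replicates 1, 3 and 4, 2wks replicates 1, 3 and 4 and 7wks replicates 2 and 4.

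*Sf3b5*, which encodes one of the smallest SF3B subunits, rose most of the SF3 genes and was at 0.804, 2.68, 1.44 and 1.15 CPM in E18.5 mice, at 7.58, 6.93, 6.75 and 10.8 CPM in 2-wk-old mice and at 2.17, 3.59, 9.21 and 6.02 CPM in 7-wk-old mice. All mice at 2 wks were above those at E18.5 (log2 fold change 2.40 ± 0.43 (SE), edgeR adjusted p = 2.80e-04), while the mice at 7 wks spread over both. The rise kept its call after the GC trend was removed (log2 fold change 2.68, edgeR adjusted p = 4.77e-04) and with the total count (log2 fold change 1.46, edgeR adjusted p = 0.00546). *Sf3a2* was at 3.12, 12.1, 7.01 and 4.86 CPM in E18.5 mice, at 18.6, 18.7, 18.6 and 20.5 CPM in 2-wk-old mice and at 12.4, 14.5, 22.5 and 16.96 CPM in 7-wk-old mice. Its values separated at 2 wks (log2 fold change 1.49 ± 0.32 (SE), edgeR adjusted p = 0.00112), but the change was 0.07 after the GC trend was removed (edgeR adjusted p = 0.641). *Sf3b2* was higher as well (log2 fold change 0.43 ± 0.14 (SE), edgeR adjusted p = 0.0162), and it turned to a fall of -0.21 (edgeR adjusted p = 0.0475) without the GC trend and of -0.50 (edgeR adjusted p = 0.00778) with the total count. *Sf3b4* gave no call (log2 fold change 0.42 ± 0.19 (SE), edgeR adjusted p = 0.0691).

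The Sm ring holds a copy each of SmB, D1, D2, D3, E, F and G, and the genes for these partners moved in different directions. *Snrpb*, which encodes SmB and its splice form SmB′, was at 17.4, 38.9, 23.4 and 20.1 CPM in E18.5 mice, at 77.6, 82.3, 88.7 and 102 CPM in 2-wk-old mice and at 48.3, 63.2, 122 and 91.4 CPM in 7-wk-old mice. All mice at 2 and 7 wks were above those at E18.5, in which replicate 2 was the highest (log2 fold change 1.81 ± 0.29 (SE), edgeR adjusted p = 1.05e-04). *Snrpd3*, whose protein pairs with SmB before ring assembly, was at 58.1, 61.4, 64.3 and 56.3 CPM in E18.5 mice, at 98.9, 103, 100.0 and 106 CPM in 2-wk-old mice and at 103, 124, 145 and 139 CPM in 7-wk-old mice. It rose with little spread (log2 fold change 0.77 ± 0.13 (SE), edgeR adjusted p = 1.72e-04), and kept its call after the GC trend was removed (log2 fold change 0.90, edgeR adjusted p = 1.31e-04). With the total count it was -0.17 (edgeR adjusted p = 0.286). *Snrpd1*, for the partner of SmD2, went the other way and was at 48.7, 39.2, 40.6 and 35.5 CPM in E18.5 mice, at 19.7, 19.6, 19.2 and 16.8 CPM in 2-wk-old mice and at 13.4, 15.7, 16.5 and 13.4 CPM in 7-wk-old mice. Its mice at E18.5 were above all others (log2 fold change -1.12 ± 0.14 (SE), edgeR adjusted p = 1.08e-05), and it was among the falls that held under all settings counted above.

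Among the other Sm genes, *Snrpd2* was higher at 2 wks (log2 fold change 0.69 ± 0.22 (SE), edgeR adjusted p = 0.0136), a call that was lost with the GC trend removed (0.02, edgeR adjusted p = 0.895). The call was lost with the length trend removed as well (-0.015, edgeR adjusted p = 0.941). *Snrpf* was at 7.94, 8.06, 5.84 and 5.45 CPM in E18.5 mice, at 12.04, 12.5, 10.5 and 14.01 CPM in 2-wk-old mice and at 3.99, 5.54, 9.22 and 6.32 CPM in 7-wk-old mice. It rose to 2 wks (log2 fold change 0.85 ± 0.23 (SE), edgeR adjusted p = 0.00545) and fell back to 7 wks (log2 fold change -0.97 ± 0.23 (SE), edgeR adjusted p = 0.00824), and the difference of the intervals passed the threshold (log2 fold change 1.82, edgeR adjusted p = 0.00316). Its rise was not called with the total count (log2 fold change -0.08, edgeR adjusted p = 0.762) or with the length trend removed (log2 fold change 0.05, edgeR adjusted p = 0.826). Its later fall was called under both. *Snrpg* fell (log2 fold change -0.58 ± 0.18 (SE), edgeR adjusted p = 0.0101), a call that was lost without the GC trend (edgeR adjusted p = 0.174), and *Snrpe* did not pass the test (log2 fold change -0.03 ± 0.14 (SE), edgeR adjusted p = 0.849). Differences between the genes of a ring do not depend on how libraries are scaled, and from *Snrpd1* at -1.12 to *Snrpb* at 1.81 they spanned a wide range of log2 fold changes. After the GC trend was removed the ends of this range were *Snrpd1* at -0.75 and *Snrpf* at 1.33. With the length trend removed instead, *Snrpd1* was at -2.03 and *Snrpf* at 0.05.

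Proteins specific to single snRNPs are encoded by 4 of the *Snrp* genes. *Snrpa* (the A protein of U1) was at 7.98, 17.2, 11.3 and 9.30 CPM in E18.5 mice, at 22.4, 23.02, 22.1 and 24.8 CPM in 2-wk-old mice and at 11.6, 14.2, 24.1 and 19.8 CPM in 7-wk-old mice, and *Snrpc* (the C protein of U1) was at 13.1, 15.9, 11.4 and 11.1 CPM in E18.5 mice, at 28.6, 31.2, 24.2 and 33.1 CPM in 2-wk-old mice and at 14.04, 18.8, 33.5 and 28.4 CPM in 7-wk-old mice. Both U1 genes were above their E18.5 values in all mice at 2 wks (*Snrpa*, log2 fold change 1.01 ± 0.25 (SE), edgeR adjusted p = 0.00293; *Snrpc*, log2 fold change 1.18 ± 0.24 (SE), edgeR adjusted p = 6.13e-04). After the GC trend was removed, *Snrpc* kept its call (log2 fold change 0.56, edgeR adjusted p = 0.0354) and *Snrpa* did not (-0.02, edgeR adjusted p = 0.93). Neither was called with the total count (edgeR adjusted p = 0.324 and 0.79) or with the length trend removed. Of the U2 genes, *Snrpb2* fell (log2 fold change -0.72 ± 0.15 (SE), edgeR adjusted p = 9.11e-04), short of the threshold without the GC trend (edgeR adjusted p = 0.338), and *Snrpa1* gave no call (log2 fold change 0.23 ± 0.15 (SE), edgeR adjusted p = 0.209).

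*Snrpn* encodes SmN, which can take the place of SmB in the Sm ring. The gene is imprinted, with expression from the paternal copy, and is best known from brain and heart. It was at 3.28, 2.04, 3.17 and 2.87 CPM in E18.5 mice, at 8.77, 10.4, 12.4 and 16.3 CPM in 2-wk-old mice and at 24.6, 26.3, 35.3 and 24.3 CPM in 7-wk-old mice. The 3 ages did not overlap in either interval. *Snrpn* rose to 2 wks (log2 fold change 2.07 ± 0.22 (SE), edgeR adjusted p = 3.61e-06) and again to 7 wks (log2 fold change 1.21 ± 0.21 (SE), edgeR adjusted p = 0.00136), 9.73-fold from E18.5 to 7 wks (log2 fold change 3.28 ± 0.23 (SE), edgeR adjusted p = 4.66e-08). It was the only member with a call to higher levels in both intervals, and both rises held under all settings counted above. With the total count the changes were 1.12 and 0.88 (edgeR adjusted p = 1.71e-04 and 0.00509). *Snurf*, which shares its transcript with *Snrpn*, had 0 counts in all 12 libraries, and whether reads of the shared transcript were left out of the counting was not tested.

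In the same libraries, *Snrpn* made up 15.9%, 4.98%, 11.97% and 12.5% of the counts of *Snrpn* and *Snrpb* together at E18.5, 10.2%, 11.2%, 12.2% and 13.7% at 2 wks, and 33.7%, 29.4%, 22.5% and 21.0% at 7 wks. The mice at 7 wks lay above all others, and the 2 earlier ages overlapped. Per kilobase of 1 annotated (canonical) transcript of each gene, the mean share of *Snrpn* was 3.77% ± 1.61 (SD, n = 4) in E18.5 mice, 3.92% ± 0.552 in 2-wk-old mice and 10.04% ± 2.76 in 7-wk-old mice. *Snrpb* thus had more counts than *Snrpn* in every mouse, also per kilobase. Reads of the transcript shared with *Snurf*, if left out of the counting, would lower the share of *Snrpn*, and this was not tested. The ratio rose from 2 to 7 wks by 1.42 on the log2 scale (exact permutation p = 0.0286, two-sided, adjusted p = 0.0476). With 4 mice against 4, no smaller p is possible. It did not pass from E18.5 to 2 wks (log2 difference 0.18, exact permutation p = 0.857, adjusted p = 0.887). The timing depended on the GC trend. With the trend taken out of both genes, the log2 difference was 1.80 to 2 wks and 0.94 from 2 to 7 wks, without overlap in either interval (exact permutation p = 0.0286 and adjusted p = 0.0612 for each).

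**Figure D5:**
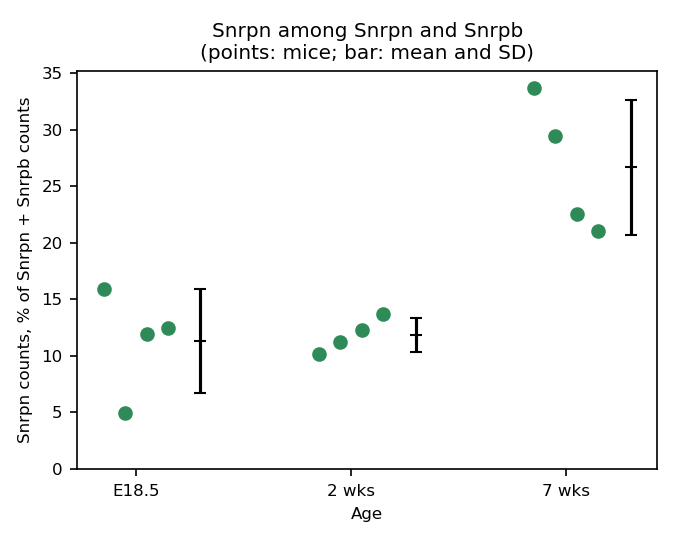
The y axis gives the counts of *Snrpn* as a percentage of the counts of *Snrpn* and *Snrpb* in each mouse (points) by age, with mean and SD (bars, n = 4). The mice at 7 wks lie between 21.0% and 33.7%, above the 4.98% to 15.9% of both earlier ages.

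Ratios of related members within a library do not depend on the scaling, but they do depend on the GC trend where the GC content of both genes differs, and 10 pairs were compared between the 3 ages. Of the 30 comparisons, 18 passed an adjusted p of 0.05 in two-sided exact permutation tests with Benjamini-Hochberg adjustment over all 30, each with p = 0.0286 and an adjusted p of 0.0476. They are the comparisons without overlap between the mice of both ages. The GC trend of each library was also taken out of both genes, an alternative added once the values were known. Fewer comparisons, 14, were then without overlap, and 0 passed, since the smallest adjusted p was 0.0612 (exact permutation tests, 14 at an unadjusted p under 0.05). Log2 differences named as without the GC trend are from that alternative. *Srsf5* relative to *Srsf1* stood at 0.731, 1.26, 1.21 and 1.07 at E18.5, at 2.57, 2.38, 1.91 and 2.08 at 2 wks and at 1.89, 1.97, 2.12 and 2.15 at 7 wks, so *Srsf5* had more counts than *Srsf1* in every mouse after birth (log2 difference to 2 wks 1.08, exact permutation adjusted p = 0.0476). *Srsf6* relative to *Srsf4* moved the other way, from 17.2, 7.67, 10.5 and 10.7 at E18.5 to 4.79, 4.42, 4.38 and 3.91 at 2 wks (log2 difference -1.34, exact permutation adjusted p = 0.0476). Without the GC trend this difference turned to 0.28 (exact permutation adjusted p = 0.101), whereas that of *Srsf5* to *Srsf1* was 1.03 without overlap. *Srsf7* relative to *Srsf3*, the closest pair of SR genes, did not pass in any comparison, with 0.417 to 0.562 over the 12 mice.

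Among hnRNP genes, *Hnrnpa2b1* was set against its relatives. The ratio of *Hnrnpa1* to *Hnrnpa2b1* was 0.427, 0.577, 0.498 and 0.444 at E18.5, 0.352, 0.309, 0.276 and 0.261 at 2 wks and 0.225, 0.215, 0.172 and 0.220 at 7 wks. That of *Hnrnpa3* to *Hnrnpa2b1* was 0.459, 0.439, 0.404 and 0.376, 0.251, 0.235, 0.238 and 0.199 and 0.169, 0.163, 0.130 and 0.155, respectively. Neither ratio overlapped between any pair of ages, and the log2 differences from E18.5 to 7 wks were -1.22 and -1.45 (exact permutation adjusted p = 0.0476 for each). The first step turned without the GC trend, with log2 differences to 2 wks of 0.26 and 0.20 and overlapping mice (exact permutation adjusted p = 0.607 for each). From 2 to 7 wks they were -0.74 and -0.86, without overlap. *Hnrnpll* lost ground to *Hnrnpl* up to 2 wks (log2 difference -1.09) and regained part of it by 7 wks (0.62). Without the GC trend the first of these was -0.14, with overlap, and the second 0.42. *Hnrnpdl* gained on *Hnrnpd*, from 1.46 to 1.59 at E18.5 to between 2.38 and 2.87 at 2 wks (log2 difference 0.74), and *Hnrnpul2* lost to *Hnrnpul1* (-0.59). Without the GC trend these were 0.46 and -0.062, the latter with overlap. *Hnrnph2* relative to *Hnrnph1* passed only from E18.5 to 7 wks (log2 difference 0.41, exact permutation adjusted p = 0.0476).

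Levels per kilobase, used to compare genes with each other, were taken over 1 annotated (canonical) transcript per gene. They depend on that choice, with 2081 bases for *Hnrnpab* against a median of 6002 over its transcripts, and 7707 against 2435.5 for *Hnrnpd*. The GC trend was not taken out of them. *Hnrnpa2b1* had the highest level of all members at each age, with 298, 227 and 290.2 CPM per kb at E18.5, 2 wks and 7 wks. *Hnrnpa1* was second at E18.5 (208 to 253 CPM per kb), ahead of *Hnrnph1* (129 to 173) and *Srsf5* (131 to 142), which overlapped. By 7 wks *Srsf5* (100.3 to 131 CPM per kb) was second and overlapped with *Hnrnpa1* (83.4 to 109.9), while *Hnrnph1* was at 66.4 to 91.5. *Srsf12* and *Snrpn*, the members with the steepest changes, were near the foot of the order at E18.5, with 0.374 and 0.742 CPM per kb.

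From 2 to 7 wks few members changed. Higher levels were called for *Snrpn* and *Hnrnpul2* (log2 fold change 0.41 ± 0.13 (SE), edgeR adjusted p = 0.0356) and lower levels for *Snrpf* and *Hnrnpa0*, 4 of 52 in all, while 13.5% of all genes were higher and 13.9% lower. At an unadjusted p under 0.05, 11 members differed. The count ranged from 2 to 8 when single libraries were left out, with 8 without E18.5 replicate 1 and 2 without 2wks replicate 1 or 2 or 7wks replicate 2 or 4. It was 26 with the total count (1 higher, 25 lower) and 9 after the GC trend was removed (3 higher, 6 lower). Of all 19276 genes, 948 were higher and 5392 lower with the total count, and 3280 and 3182 after the GC trend was removed. The calls that this removal added were to lower levels for *Hnrnpa3* (-0.41, edgeR adjusted p = 0.0146), *Snrpd1* (-0.46, edgeR adjusted p = 0.0204), *Srsf10* (-0.33, edgeR adjusted p = 0.0468), *Srsf11* (-0.43, edgeR adjusted p = 0.0206) and *Srsf6* (-0.50, edgeR adjusted p = 0.0115) and to a higher level for *Hnrnpul1* (0.36, edgeR adjusted p = 0.0105). *Hnrnpul2* was at 174, 130.3, 132 and 126 CPM in E18.5 mice, at 84.5, 77.1, 84.3 and 83.6 CPM in 2-wk-old mice and at 119, 111, 101 and 106 CPM in 7-wk-old mice. Its mice at 7 wks lay between those of the other ages, and the call was lost with the total count (log2 fold change 0.06, edgeR adjusted p = 0.772) and without any library of 2wks or 7wks replicate 1, 2 or 4. Of the SR genes 0 of 11 and of the SF3 genes 0 of 9 passed by edgeR, with 1 and 0 at an unadjusted p under 0.05, and DESeq2 called 7 of all members.

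Over the whole span from E18.5 to 7 wks, 31 members were lower and 9 higher, against 37.1% and 34.3% of all genes. The falls comprised 15 of 20 hnRNP genes, 8 of 11 SR genes, 5 of 9 SF3 genes and 3 of 12 *Snrp* genes. Among hnRNP genes the changes were largest for *Hnrnpa3* (log2 fold change -1.49 ± 0.17 (SE), edgeR adjusted p = 3.15e-06), *Hnrnpa0* (log2 fold change -1.35 ± 0.17 (SE), edgeR adjusted p = 8.99e-06) and *Hnrnpa1* (log2 fold change -1.24 ± 0.14 (SE), edgeR adjusted p = 3.27e-06). After *Srsf12*, which passed the filter only through E18.5, they were largest for *Srsf1* (log2 fold change -1.18 ± 0.17 (SE), edgeR adjusted p = 3.32e-05) and *Srsf10* (log2 fold change -1.04 ± 0.19 (SE), edgeR adjusted p = 2.63e-04) among SR genes. *Sf3b3* (log2 fold change -1.23 ± 0.15 (SE), edgeR adjusted p = 7.09e-06), *Snrpd1* (log2 fold change -1.48 ± 0.14 (SE), edgeR adjusted p = 5.30e-07) and *Snrpg* (log2 fold change -1.07 ± 0.18 (SE), edgeR adjusted p = 1.06e-04) led the other classes. Besides *Snrpn*, higher levels were called for *Snrpb* (log2 fold change 1.70 ± 0.29 (SE), edgeR adjusted p = 1.26e-04), *Snrpd3* (log2 fold change 1.09 ± 0.13 (SE), edgeR adjusted p = 5.54e-06), *Sf3b5* (log2 fold change 1.79 ± 0.43 (SE), edgeR adjusted p = 0.00187), *Sf3a2* (log2 fold change 1.29 ± 0.32 (SE), edgeR adjusted p = 0.00263), *Snrpc*, *Snrpa*, *Srsf4* and *Sf3b2*. *Snrpa* lost this call without E18.5 replicate 1, 3 or 4, 2wks replicate 2 or 3 or 7wks replicate 3 or 4, and *Srsf4* without E18.5 replicate 1, 3 or 4 or 7wks replicate 3 or 4. This comparison shares its libraries with both intervals. With the total count 1 member, *Snrpn*, was higher and 46 were lower, and after the GC trend was removed 5 were higher and 32 lower. Of all 19276 genes, 2291 were higher and 13297 lower with the total count, and 6163 and 8209 after the GC trend was removed. This removal added calls to lower levels for *Hnrnpa2b1* (-0.54, edgeR adjusted p = 0.0169), *Hnrnpul1* (-0.48, edgeR adjusted p = 3.71e-04), *Sf3b4* (-0.37, edgeR adjusted p = 0.033) and *Srsf9* (-1.08, edgeR adjusted p = 1.28e-05). It ended the calls of *Hnrnph2* (-0.04, edgeR adjusted p = 0.665), *Sf3b2* (0.01, edgeR adjusted p = 0.91), *Sf3b6* (-0.20, edgeR adjusted p = 0.246), *Snrpa* (-0.19, edgeR adjusted p = 0.245), *Snrpb2* (-0.21, edgeR adjusted p = 0.299), *Snrpc* (0.35, edgeR adjusted p = 0.163) and *Srsf4* (-0.24, edgeR adjusted p = 0.0807). Of the 9 rises, 1, that of *Snrpn*, kept its call under all other settings counted above. The rise of *Snrpa* kept it under 1 and that of *Srsf4* under 3 of 11.

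The mice of both ages did not overlap for 40 of 52 members from E18.5 to 2 wks, for 15 from 2 to 7 wks and for 36 over the whole span, against 61.3%, 33.7% and 63.4% of all genes. The change before 2 wks differed from the change after it for 26 members by a contrast of its own in the same fit (edgeR adjusted p under 0.05), while 38.4% of all genes passed it. Of these, 13 were hnRNP genes, all with the first change more negative, led by *Hnrnpll* (difference of log2 fold changes -1.64, edgeR adjusted p = 7.36e-04) and *Hnrnpr* (-1.59, edgeR adjusted p = 9.67e-04). *Sf3b5* had the largest difference to the other side (3.01, edgeR adjusted p = 0.00466). The count was 14 without 2wks replicate 4 and 16 after the GC trend was removed.

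Other genes of the splicing machinery, taken from lists chosen by function with earlier results of these data known, moved in both directions. Of 50 other spliceosome proteins, 19 were higher and 10 lower at 2 wks, against 31.5% and 34.2% of all genes. Their median log2 fold change was 0.09. *Lsm4*, of the Lsm ring around U6, rose most (log2 fold change 2.34 ± 0.32 (SE), edgeR adjusted p = 2.75e-05), followed by *Snrnp25* of the minor spliceosome (log2 fold change 1.70 ± 0.27 (SE), edgeR adjusted p = 1.11e-04). The helicase gene *Dhx15* (log2 fold change -1.05 ± 0.17 (SE), edgeR adjusted p = 9.68e-05) and *Prpf38a* (log2 fold change -0.97 ± 0.12 (SE), edgeR adjusted p = 1.55e-05) fell most. With the total count 3 of the 50 were higher and 36 lower, and after the GC trend was removed 15 were higher and 16 lower (median -0.06), so neither direction held for the list. Of all 19276 genes, 2550 were higher and 11923 lower with the total count, and 5170 and 7597 after the GC trend was removed. *Snrnp70*, the remaining U1-specific protein, named here after its values were seen, rose to 2 wks (log2 fold change 0.56 ± 0.16 (SE), edgeR adjusted p = 0.00743) and fell to 7 wks (log2 fold change -0.65 ± 0.16 (SE), edgeR adjusted p = 0.00988).

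Of 14 tested genes for the assembly of Sm rings, 1 was higher and 6 lower at 2 wks, against 31.5% and 34.2% of all genes. The rise was that of *Gemin7* (log2 fold change 1.64 ± 0.20 (SE), edgeR adjusted p = 9.81e-06), and the largest falls were those of *Tgs1* (log2 fold change -1.13 ± 0.20 (SE), edgeR adjusted p = 2.05e-04) and *Gemin8* (log2 fold change -1.07 ± 0.20 (SE), edgeR adjusted p = 4.33e-04). With the total count 1 of the 14 was higher and 13 lower, and after the GC trend was removed 3 were higher and 6 lower. Among all 19276 genes, 2550 were higher and 11923 lower with the total count, and 5170 and 7597 after the GC trend was removed. *Smn1*, the mouse gene of the protein deficient in spinal muscular atrophy, also named after its values were seen, was at 9.01, 8.81, 8.30 and 7.26 CPM in E18.5 mice, at 9.83, 9.60, 8.89 and 8.60 CPM in 2-wk-old mice and at 7.66, 7.80, 11.7 and 9.47 CPM in 7-wk-old mice. It overlapped between ages (log2 fold change 0.15 ± 0.16 (SE), edgeR adjusted p = 0.441). Kinases and importers of SR proteins gave 1 rise, of *Clk3* (log2 fold change 1.07 ± 0.15 (SE), edgeR adjusted p = 4.06e-05), and 4 falls among 9 genes. The largest falls were those of *Prpf4b* (log2 fold change -0.84 ± 0.17 (SE), edgeR adjusted p = 7.84e-04) and *Srpk2* (log2 fold change -0.73 ± 0.16 (SE), edgeR adjusted p = 0.00121). With the total count 0 of these 9 genes were higher and 8 lower, and after the GC trend was removed 2 were higher and 4 lower. *Srpk3*, the SR kinase of striated muscle, did not pass to 2 wks (log2 fold change 0.11 ± 0.16 (SE), edgeR adjusted p = 0.576) and fell to 7 wks (log2 fold change -0.58 ± 0.16 (SE), edgeR adjusted p = 0.0188).

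SR-related proteins gave 3 falls and 0 rises among 7 genes, including *Tra2a* (log2 fold change -0.92 ± 0.15 (SE), edgeR adjusted p = 1.61e-04) and *Tra2b* (log2 fold change -0.91 ± 0.14 (SE), edgeR adjusted p = 9.91e-05), which act with SR proteins on exons (3 genes at an unadjusted p under 0.05). Of all genes, 34.2% were lower and 31.5% higher at 2 wks. With the total count 7 of the 7 SR-related genes were lower, and 4 after the GC trend was removed, with 0 higher in both. Among all 19276 genes, 2550 were higher and 11923 lower with the total count, and 5170 and 7597 after the GC trend was removed. Of 10 hnRNP proteins with other symbols, 6 were lower and 3 higher, with *Matr3* (log2 fold change -1.36 ± 0.18 (SE), edgeR adjusted p = 2.08e-05) and *Syncrip* (log2 fold change -1.33 ± 0.21 (SE), edgeR adjusted p = 8.48e-05), the sister gene of *Hnrnpr*, at the head of the falls. The cold-inducible *Cirbp* (log2 fold change 1.25 ± 0.24 (SE), edgeR adjusted p = 4.65e-04) and *Raly* (log2 fold change 0.54 ± 0.19 (SE), edgeR adjusted p = 0.0235) led the rises. With the total count 0 of these 10 were higher and 8 lower, and 1 and 7 after the GC trend was removed. Nonsense-mediated decay (NMD) removes many poison-exon transcripts of SR genes, and of 10 NMD genes 4 were higher and 1 lower at 2 wks, against 31.5% and 34.2% of all genes. This balance turned with the total count (1 higher, 7 lower) and was even after the GC trend was removed (3 and 3). *Smg9* (log2 fold change 1.65 ± 0.27 (SE), edgeR adjusted p = 1.12e-04) and *Upf1* (log2 fold change 1.27 ± 0.24 (SE), edgeR adjusted p = 4.27e-04) rose most, and *Smg1* fell (log2 fold change -0.88 ± 0.19 (SE), edgeR adjusted p = 0.00108). By 7 wks 8 of the 10 were above E18.5 with TMM scaling and 0 of 10 with the total count, by which 6 were lower. Of all genes, 34.3% were higher with TMM scaling, and 13297 of 19276 were lower with the total count.

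Annotated transcripts subject to NMD are common among the members. All 11 tested SR genes have at least 1 in GENCODE vM39, with a median of 21 each, against 70.1% of 15233 protein-coding genes and a median of 2. Such transcripts are annotated for 14 of 20 hnRNP, 7 of 9 SF3 and 9 of 12 *Snrp* genes. Counts per gene do not separate such transcripts from coding ones, so a level given above may include both. Of the 52 tested members, 35 overlap an annotated gene on the other strand and 11 one on the same strand, and reads of close paralogs and processed pseudogenes could be split between copies. The strand setting of the counting is not given in the sources used here, although the libraries were stranded.

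Markers of muscle fibres and of other cells moved over the same ages. Of all genes, 34.2% were lower and 31.5% higher at 2 wks than at E18.5, 13.9% were lower at 7 than at 2 wks, and 37.1% were lower over the whole span. The 8 markers of cycling cells, such as *Mki67* and *Top2a*, were all lower in each comparison, with none at 0. Their summed level was 465 to 683 CPM in E18.5 mice, 112 to 226 CPM in 2-wk-old mice and 27.9 to 38.6 CPM in 7-wk-old mice. Their median fell by 2.05 on the log2 scale to 2 wks and by 3.74 from 2 to 7 wks. All 7 muscle genes passed to 2 wks, with the fetal myosins *Myh3* and *Myh8* lower. Higher were *Acta1*, *Ckm*, *Des*, *Ttn* and the adult myosin *Myh4*, and the sum of the list went from between 12980 and 22980 CPM to between 107000 and 129500 CPM. Of fibroblast markers 3 of 6 were lower (summed 5963 to 12270 CPM at E18.5 and 4466 to 6128 CPM at 2 wks), of macrophage markers 2 of 5 lower and 1 higher (152 to 185 and 65.2 to 89.5 CPM), and of endothelial markers 3 of 5 higher (341 to 484.5 and 726.5 to 887 CPM). Adipocyte markers were lower for 5 of 5, with 12.6 to 429 CPM at E18.5, so the mice at E18.5 differed widely in them, against 2.00 to 7.19 CPM at 2 wks. Of the markers tested, 2 of 5 for satellite cells were lower and 1 higher, 2 of 7 for red blood cells lower, 1 of 5 for Schwann cells lower and 2 higher, 3 of 4 for cartilage lower and 3 of 4 for epidermis lower. The counts of falls for satellite cells, red blood cells and macrophages lie near the share of all genes, and the lists are short. In bulk muscle, fewer cells of a type and less RNA per cell cannot be told apart, and the part of these shifts in the changes of the members was not tested.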

How the data were processed

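Poly(A) RNA of the TA of WT 129Pas mice at E18.5, 2 wks and 7 wks (n = 4 each) had been sequenced as stranded 100-bp paired-end libraries, and the authors deposited raw read counts per gene for 12 libraries. Per the labels, bcl2fastq 2.17.1.14, cutadapt 1.10, STAR 2.5.3a and HTSeq 0.6.1p1 were used. The build is given as mm10 in the labels and as another assembly in the methods of the study, the count table holds no coordinates, and the annotation and strand setting are not given in the sources used here. Libraries held 63019000 to 123449000 counts.

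Counts were tested with edgeR 4.0.16 in R 4.3.3 (quasi-likelihood test, TMM scaling, age as the only factor, all 12 libraries, filterByExpr), which kept 19276 genes and removed 36174, with Benjamini-Hochberg adjustment over the genes kept and a threshold of 0.05. Ratios of paralogs (0.5 added to each count) were compared by two-sided exact permutation tests, also with the GC trend removed, a choice made after seeing the data. P-values measure the spread between these mice. Gene IDs were matched to GENCODE vM39 for length, GC content and transcript types (51477 of 55450 IDs, the 3973 others holding 0.0394% of counts), and promoter sequences and their coordinates are from RefSeq (GRCm38.p6). Trends over GC content or length were removed per library by a spline with 5 degrees of freedom fitted over genes with a mean log2 CPM over 1. Other alternatives were total count scaling, total count scaling without mitochondrial genes and the 20 genes of highest abundance, upper-quartile and DESeq2 scaling, DESeq2 1.42.0, no or a stricter filter, a log2 fold change beyond 1, the replicate number as a block, 8 libraries at a time, and each library left out. Tests were tried on simulated data first.

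Full statistics are given for up to 3 of the largest rises and falls past the threshold per class and comparison, for paralog ratios, for members against their class, and for up to 2 rises and 2 falls of each list of other splicing genes. Other members are named freely. The members were set by their symbols, whereas the lists and alternatives were chosen with earlier results of these data known.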

Additional observations from a re-analysis of the deposited data

Results flagged for a closer look

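In 20 of 186 sets of 4 mice (52 members and 10 paralog ratios at 3 ages), 1 mouse stood so far from the other 3 that the gap took up most of the range of the set (Dixon's 95% criterion), against 9.3 sets that chance gives at about 1 in 20. Of these, 11 concerned replicate 1 at E18.5, the library with the steepest trend over GC content, and the part of that trend in them was not tested. It was the highest in 10 of them, with 281 CPM of *Srsf3* (197 to 208.5 for the rest of its age group), 92.6 CPM of *Hnrnpa0* (55.2 to 59.9), 491 CPM of *Hnrnpa3* (317 to 337), 153 CPM of *Hnrnpd* (100.0 to 108), 232 CPM of *Hnrnpdl* (156 to 168), 417 CPM of *Hnrnph1* (310.0 to 327), 100.2 CPM of *Hnrnph2* (75.1 to 77.1), 416 CPM of *Hnrnpk* (319.6 to 332), 173.5 CPM of *Hnrnpul2* (126 to 132) and 34.5 CPM of *Sf3b6* (27.8 to 28.9). It was the lowest for *Hnrnpl*, with 136 CPM (169 to 170.1).

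The other 9 sets were spread over mice and ages. At E18.5, replicate 2 had 16.8 CPM of *Srsf9* (11.7 to 11.8 in the others) and replicate 4 had 0.783 CPM of *Srsf12* (1.21 to 1.23). At 2 wks, replicate 3 had 25.1 CPM of *Hnrnph3* (26.9 to 27.0), replicate 2 had 77.1 CPM of *Hnrnpul2* (83.6 to 84.5), replicate 4 had 20.5 CPM of *Sf3a2* (18.6 to 18.7), and replicate 1 had a ratio of *Hnrnpul2* to *Hnrnpul1* of 1.44 (1.34 to 1.36). At 7 wks, replicate 1 had 68.2 CPM of *Hnrnpd* (60.3 to 60.7) and a ratio of *Hnrnpll* to *Hnrnpl* of 0.306 (0.235 to 0.242), and replicate 3 had 40.5 CPM of *Hnrnph3* (31.4 to 31.9).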

How the results depend on the processing

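Of 85 member changes past the threshold over the 3 comparisons, 74 kept direction and call without each single library, and 12 under all other alternatives including the test beyond a log2 change of 1. All genes were counted beside the members only with TMM scaling, with the total count and with the GC trend removed, as given above. Between E18.5 and 2 wks, 3 members were higher with the total count, 5 with the total count without abundant genes, 7 with the GC trend and 6 with the length trend removed, and beyond a log2 fold change of 1 there were 6 changed, 3 higher and 3 lower. Their median (log2) was -1.40 with the total count, -0.61 with the upper quartile, -0.95 with the total count without abundant genes, -0.60 without a filter, -0.38 with the GC trend and -0.75 with the length trend removed. From 2 to 7 wks, 26 members changed with the total count (1 higher, 25 lower), 20 without abundant genes (1 and 19), 7 with the upper quartile (1 and 6), 7 with DESeq2 (4 lower), 2 without a filter (1 and 1), 9 with the GC trend removed (6 lower), 8 with only the 8 libraries of both ages (6 lower) and 0 beyond a log2 fold change of 1 (0 and 0). With at least 10 counts in every library, 1 was higher and 5 lower, and with the length trend removed 1 was lower. The median was -0.51, -0.26 and -0.43 with the total count, the upper quartile and the total count without abundant genes. From E18.5 to 7 wks, 1, 4 and 5 members were higher with the total count, without abundant genes and with the GC trend removed, and 8 changed beyond a log2 fold change of 1 (3 higher, 5 lower). That median was -1.81, -0.78 and -1.29 under the same 3 scalings, -0.63 without a filter, -0.67 with at least 10 counts, -0.88 with the length trend removed and -0.63 with 8 libraries. The contrast of both intervals passed for 16 members with the GC trend removed and for 3 beyond a log2 fold change of 1. Directions turned for single members. To 2 wks, with the total count, *Snrpf* was at -0.079, *Snrpd3* at -0.17, *Sf3b2* at -0.50 and *Snrpd2* at -0.24. To 7 wks, with the total count, *Snrpd3* was at -0.19, *Sf3a2* at -0.0012, *Snrpc* at -0.40, *Sf3b2* at -0.74, *Srsf4* at -0.71 and *Snrpa* at -0.68. Without abundant genes, *Sf3b2* was at -0.053 to 2 wks, and to 7 wks *Sf3b2* was at -0.22, *Srsf4* at -0.18 and *Snrpa* at -0.16. With the GC trend removed, *Sf3b2* was at -0.21, *Srsf4* at -0.11, *Sf3b6* at 0.060 and *Snrpa* at -0.015 to 2 wks, and *Srsf4* at -0.24 and *Snrpa* at -0.19 to 7 wks. With the length trend removed, *Snrpd2* was at -0.015 to 2 wks and *Snrpa* at -0.014 to 7 wks. The cause of these shifts was not tested. Without single libraries, 37 to 41 members changed to 2 wks (11 to 12 higher, 26 to 30 lower, median -0.51 to -0.39), 2 to 8 from 2 to 7 wks (1 to 4 higher, 1 to 4 lower, median -0.16 to -0.10) and 35 to 41 over the whole span (7 to 10 higher, 28 to 31 lower, median -0.56 to -0.43), and the difference of the intervals passed for 14 to 30. Replicate numbers did not pair the mice (5 of 12 correlations of deviations over 0.1, from -0.28 to 0.51), and with the replicate block 40, 4 and 40 members changed and 25 differed between intervals. With 0 or 1 added to each count, 18 ratio comparisons passed, as many as with 0.5. With 3 mice against 4 or 4 pairs the smallest p is 0.057 or 0.125, so these cannot pass. With the GC trend taken out of both genes, an alternative added after seeing the data, 0 ratio comparisons passed instead of 18 (smallest adjusted p 0.0612), and to 2 wks *Hnrnpa1* to *Hnrnpa2b1* turned to 0.26, *Hnrnpa3* to *Hnrnpa2b1* to 0.20 and *Srsf6* to *Srsf4* to 0.28 (log2 differences, exact permutation tests). Depth limits only *Srsf12* after birth and *Srsf19*.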
